A study of Mus musculus with 8 samples.

Results

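Of the 375 mouse and rat microRNA (miRNA) assays on a rodent quantitative PCR card, 101 gave no threshold cycle (Ct) on any of 8 liver cards, or 26.9%, and these silent assays are described here. They were chosen by their measured values alone, as the assays whose Ct was empty on all 8 cards, so their silence is a description and carries no test. A Ct is the amplification cycle at which the signal of a well crosses a threshold, so a lower Ct means more of the target, and an empty Ct means that no crossing was recorded. The plant assay ath-miR159a, which has no target in mice and was also empty on all 8 cards, was left out, as were 5 control RNA assays.

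The RNA came from whole livers of C57B6 female mice that were 4 weeks old when treatment began. One group was untreated, and the others received carbon tetrachloride (CCl4), a hepatotoxin that produces liver fibrosis, in corn oil by intraperitoneal injection over 1, 4 or 8 weeks. Each of the 4 groups had 2 cards, called card 1 and card 2 by the replicate numbers of the labels, which do not say whether both came from separate mice. The labels give the dose in mg/kg and the methods in ml/kg, and no vehicle group is labelled. In whole liver RNA, fewer cells of a type and less miRNA per cell cannot be told apart.

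A miRNA is cut from a hairpin precursor, and either arm of the hairpin (5p or 3p) can be kept as the mature strand of about 22 bases. The seed, bases 2 to 8 of the mature strand, does most of the pairing with target mRNAs, and miRNAs with 1 seed are counted as a family. Many miRNA genes lie in clusters that are transcribed together, and many are used in a narrow set of tissues, such as muscle, brain, germ cells or the early embryo. Adult liver is dominated by miR-122, the classic hepatocyte miRNA.

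The mature sequences below are shown because they belong to silent assays of the embryonic stem cell, germ cell, muscle, brain and pancreas lists or to those with a family member on the card. They are from RefSeq on GRCm38.p6, written 5′ to 3′ with the seed in capitals. The table held a mature sequence for 65 of the 81 silent assays named for mouse, 33 by the same name and 32 by an older name without an arm, for which the arm was set from general knowledge of that name. Assays named for rat were given no sequence. Of the silent members of these lists, miR-302a, mmu-miR-1, rno-miR-219-2-3p, rno-miR-742, rno-miR-871, rno-miR-878 and rno-miR-881 are therefore named only.

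The first set is the miR-302 family of pluripotent stem cells, with the silent miRNAs first and then the family members of the miR-290 group that did give a Ct. The seed AAGUGCU was common to both groups, whereas miR-302c has the same letters 1 base earlier.
mmu-miR-302b-3p (chr3:127545275-127545297, plus strand): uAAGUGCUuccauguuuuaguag
mmu-miR-302d-3p (chr3:127545665-127545687, plus strand): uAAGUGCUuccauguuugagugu
mmu-miR-302c-3p (chr3:127545406-127545427, plus strand): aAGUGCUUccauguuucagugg
mmu-miR-291a-3p (chr7:3218968-3218989, plus strand): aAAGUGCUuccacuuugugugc
mmu-miR-294-3p (chr7:3220691-3220712, plus strand): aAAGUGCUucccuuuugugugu
mmu-miR-295-3p (chr7:3220815-3220837, plus strand): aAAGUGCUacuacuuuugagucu
Set position by position from the 5′ end, the silent miR-302b and miR-302d had the same base at 20 of 23 positions, and miR-302b and miR-295 at 15 of 23. The differences between miR-302b and miR-302d were U18G, A22G and G23U, with the base of miR-302b first.

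The second set holds silent miRNAs of the miR-17 type clusters beside the relatives that were read on the cards. miR-18b differs from miR-18a, which had a Ct on all 8 cards, only by A18U and A20U (miR-18a first), and miR-363 has the seed AUUGCAC of miR-25 and miR-92a. For miR-92a, 1 of its 2 loci is given.
mmu-miR-18b-5p (chrX:52742381-52742403, minus strand): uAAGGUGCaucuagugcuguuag
mmu-miR-18a-5p (chr14:115043867-115043889, plus strand): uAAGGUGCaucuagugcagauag
mmu-miR-363-3p (chrX:52741697-52741718, minus strand): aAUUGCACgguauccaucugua
mmu-miR-92a-3p (chr14:115044476-115044496, plus strand): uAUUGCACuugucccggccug
mmu-miR-25-3p (chr5:138165332-138165353, minus strand): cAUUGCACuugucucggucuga
mmu-miR-32-5p (chr4:56895272-56895293, minus strand): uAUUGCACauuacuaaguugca
mmu-miR-367-3p (chr3:127545779-127545800, plus strand): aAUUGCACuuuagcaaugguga

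The third set holds the silent miRNAs of the X-linked group that is known from testis and the determined miR-465b-5p. miR-743a and miR-743b-3p were a silent pair with the seed AAAGACA and 19 of 22 positions in common. miR-883a-3p and miR-883b-3p were a silent pair with the seed AACUGCA, and they differ only by G12U. The seed AUUUAGA of the silent miR-465a-5p is also that of miR-465b-5p, which had a Ct on 5 cards.
mmu-miR-743a-3p (chrX:66776760-66776781, minus strand): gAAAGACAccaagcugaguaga
mmu-miR-743b-3p (chrX:66777266-66777287, minus strand): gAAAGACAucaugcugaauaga
mmu-miR-743b-5p (chrX:66777302-66777322, minus strand): uGUUCAGAcugguguccauca
mmu-miR-742-3p (chrX:66780376-66780397, minus strand): gAAAGCCAccaugcuggguaaa
mmu-miR-883a-3p (chrX:66780768-66780789, minus strand): uAACUGCAacagcucucaguau
mmu-miR-883a-5p (chrX:66780803-66780824, minus strand): uGCUGAGAgaaguagcaguuac
mmu-miR-883b-3p (chrX:66789900-66789921, minus strand): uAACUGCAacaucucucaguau
mmu-miR-878-5p (chrX:66801554-66801575, minus strand): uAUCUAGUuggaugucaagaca
mmu-miR-881-3p (chrX:66801954-66801975, minus strand): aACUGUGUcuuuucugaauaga
mmu-miR-871-5p (chrX:66810472-66810494, minus strand): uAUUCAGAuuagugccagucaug
mmu-miR-470-5p (chrX:66813995-66814017, minus strand): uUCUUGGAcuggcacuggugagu
mmu-miR-201-5p (chrX:67988135-67988156, minus strand): uACUCAGUaaggcauuguucuu
mmu-miR-465a-5p (chrX:66839099-66839121, minus strand): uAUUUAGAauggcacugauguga
mmu-miR-465b-5p (chrX:66835811-66835832, minus strand): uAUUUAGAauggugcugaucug

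The fourth set holds those silent miRNAs of the muscle, brain and pancreas lists that had a sequence, with miR-216a beside miR-216b, and miR-23a with its cluster mate miR-27a. For miR-129-5p, 1 of 2 loci is given.
mmu-miR-499-5p (chr2:155622893-155622913, plus strand): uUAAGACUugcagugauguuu
mmu-miR-153-3p (chr12:117250860-117250881, plus strand): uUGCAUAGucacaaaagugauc
mmu-miR-129-5p (chr2:94241419-94241439, minus strand): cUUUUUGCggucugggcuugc
mmu-miR-384-3p (chrX:105344292-105344313, minus strand): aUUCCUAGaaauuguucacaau
mmu-miR-488-3p (chr1:158505689-158505709, plus strand): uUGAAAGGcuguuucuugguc
mmu-miR-216b-5p (chr11:28746204-28746225, plus strand): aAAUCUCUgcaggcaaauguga
mmu-miR-216a-5p (chr11:28757018-28757039, plus strand): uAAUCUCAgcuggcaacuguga
mmu-miR-23a-3p (chr8:84208563-84208583, plus strand): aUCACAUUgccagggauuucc
mmu-miR-27a-3p (chr8:84208727-84208747, plus strand): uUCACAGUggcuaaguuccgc

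Detection on the cards had 2 peaks: 163 assays had a Ct on all 8 cards, 101 on none, and 111 on some. The assays with a Ct on 1 card were the next most common class, with 34, and no number of cards from 2 to 7 held more than 16 assays. Each card read between 188 and 230 of the 375 assays. The silent assays were 26.9% of all assays, but 81 of 335 assays named for mouse (24.2%) and 20 of 40 named for rat.

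**Figure D1:**
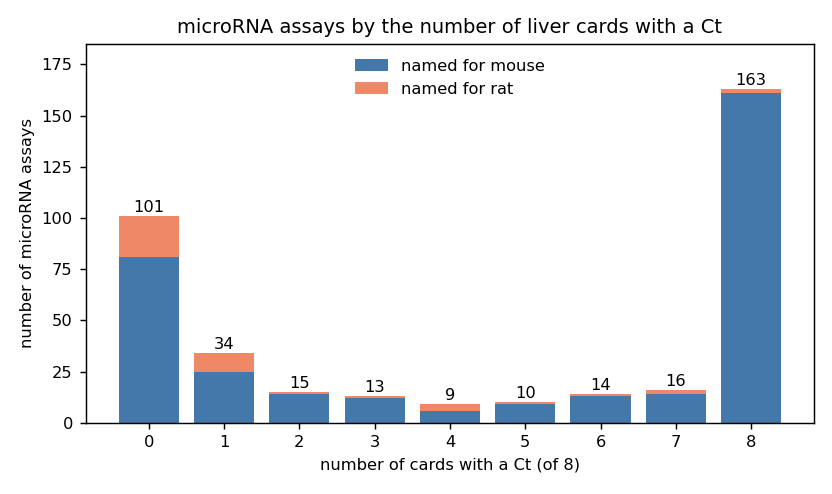
Number of microRNA assays (vertical axis) by the number of cards with a Ct (horizontal axis, 0 to 8), with assays named for mouse in blue and for rat in orange. The tallest bars are at 8 cards (163 assays) and at 0 cards (101 assays), and only 2 assays named for rat were read on all 8.

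The highest Ct that a card recorded lay between 36.52 and 37.77, but an empty well shows only that no Ct was recorded, not that the miRNA was absent or below that cycle's level. rno-miR-207, for example, read 29.78 and 29.45 on card 1 of the 4-week and 8-week groups and was empty on card 2 of both. Card 2 of the 4-week group stood apart, with the fewest determined assays (188) and with 45.4% of its Ct values for the 163 assays read on every card within 0.05 of a whole cycle, against 9.82% to 25.8% on the other 7 cards. Without it the silent assays number 104. The Ct values here are not normalized, and the control RNAs also moved between groups. U87, for example, read 25.85 and 25.15 without treatment and 27.93 and 27.94 after 1 week, while MammU6 read 18.42 and 17.24 without treatment and 15.76 and 16.17 after 1 week.

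Assays known as markers of liver cell types were looked up as well. Their counts use the same values as the rule, so they are a description and not a check of the tissue. All 5 hepatocyte assays, miR-122, miR-148a, miR-192, miR-194 and miR-802, had a Ct on every card. The Ct of miR-122 was 21.95 and 22.39 without treatment. After 1 week of CCl4 it was 24.16 and 23.60, after 4 weeks 22.80 and 23.69, and after 8 weeks 21.97 and 22.22. The 4 leukocyte assays, miR-142-3p, miR-142-5p, miR-150 and miR-223, and the 2 assays of the endothelial miR-126 were also read on all 8 cards. Of the 5 mesenchymal assays, only miR-199a-5p was not, with a Ct of 33.97 on untreated card 2 and none elsewhere, although miR-199a-3p ran from 26.57 to 28.78 over the 8 cards. None of these hepatocyte, leukocyte, endothelial and mesenchymal markers was silent. miR-147, from the list of activated macrophages given below, was silent.

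By group, 145 assays were empty on both untreated cards, 150 on both 1-week cards, 141 on both 4-week cards and 138 on both 8-week cards. The 101 silent assays are within each of these counts, and the remaining 44, 49, 40 and 37 had a Ct in another group. The counts at 3 times of CCl4 lay on either side of the untreated count.

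The assays just outside the rule are the 34 with a Ct on exactly 1 card. Their Ct ran from 29.68 to 37.21 with a median of 35.96, and 26 of the 34 were at or above 35. They were spread over the groups, 10 on untreated cards, 9 at 1 week, 9 at 4 weeks and 6 at 8 weeks, and each card held between 2 and 7 of them. The lowest was miR-291b-5p of the embryonic miR-290 group, at 29.68 on card 2 of the 4-week group. The neuronal miR-124 came next, at 31.01 on untreated card 2. Both had no Ct on the group's other card, so neither value has a replicate.

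The 7 assays found on card 2 of the 1-week group alone included miR-216a (35.99) and miR-217 (35.97), known from the exocrine pancreas, and the muscle miRNA miR-133b (32.96). The others on this card were miR-344 (33.99), miR-582-3p (35.96), rno-miR-219-1-3p (35.97) and miR-489 (36.99). The muscle miRNA miR-133a was read on all 8 cards and had its lowest Ct on this same card, 26.78, against 30.87 on the other 1-week card and 30.30 to 35.98 on the others. rno-miR-1 was also lowest there, at 32.10. Other assays of the muscle and pancreas lists had no Ct on this card, namely mmu-miR-1, miR-499, miR-208, miR-208b, miR-216b and miR-375. miR-208b read 35.75 on the other 1-week card.

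**Figure D2:**
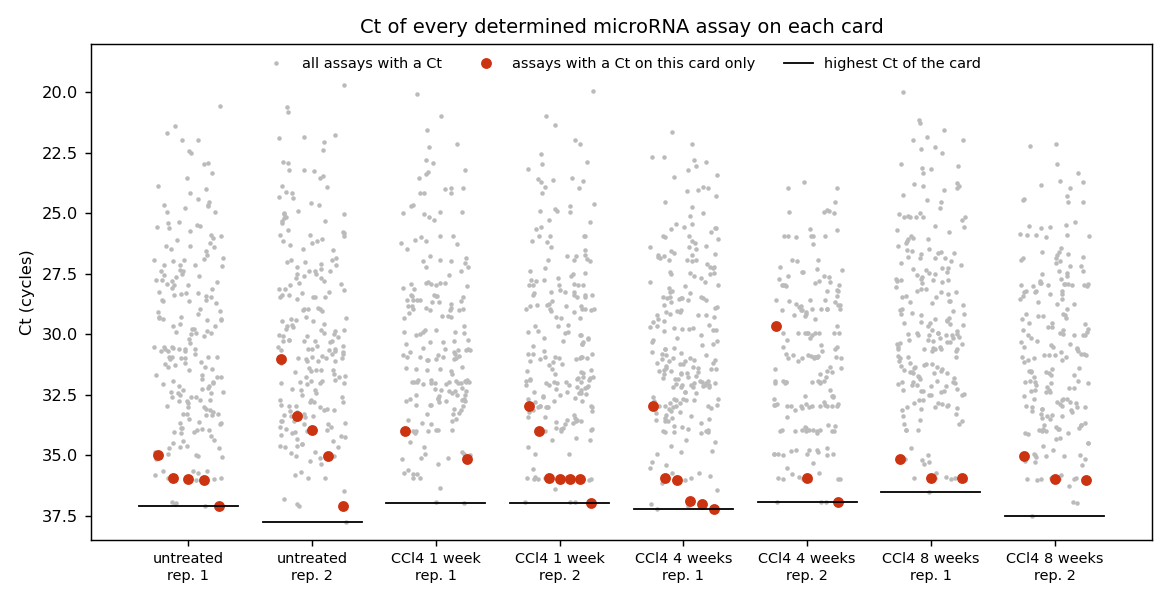
Ct in cycles (vertical axis, high levels at the top) of every microRNA assay determined on each of the 8 cards (horizontal axis). Grey points are all determined assays, red points the 34 assays with a Ct on that card only, and black lines the highest Ct of the card. Most red points lie at Ct 35 or above, in rows near 36.

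Of the 34 values, 24 (70.6%) lay within 0.05 of a whole cycle, as 35.97 does. Among the 1304 values of the assays read on all 8 cards the share was 22.2%. At Ct 35 or above the shares were 69.2% of 26 values for the assays on 1 card, 48.5% of 33 values for those on 2 to 4 cards, 32.5% of 40 values for those on 5 to 7, and 39.4% of 33 values for those on all 8. Below Ct 35, 6 of the 8 values for the assays on 1 card lay that near, and 21.8% of 1271 values for those on all 8. Without card 2 of the 4-week group the shares were 71.0% of 31 values and 18.9% of 1141 values. The cause was not tested, and it bears on the silent set because a Ct of this kind on any card was enough to leave an assay out of it.

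In all, 12 lists of miRNAs known for a tissue, cell type or genomic group were set against the cards. At least 1 of them held 54 of the 101 silent assays, and 151 of all 375 assays. The share of silent assays over the whole card was 26.9%, and since the rule uses these values, the counts below are a description. The group with the largest share was the X-linked testis group, with 17 of 22 assays silent, or 77.3%. The muscle (2 of 7), brain (5 of 18) and pancreas (1 of 4) lists had shares close to that of the whole card. The same held for the Sfmbt2 group (3 of 11) and the ciliated list (1 of 4). Shares of the embryonic stem cell list (4 of 12) and the Dlk1-Dio3 region (18 of 52) were somewhat higher. So were those of the Hox clusters (2 of 6) and the macrophage list (1 of 3). The epithelial and sensory lists had 0 of 7 and 0 of 5.

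**Figure D3:**
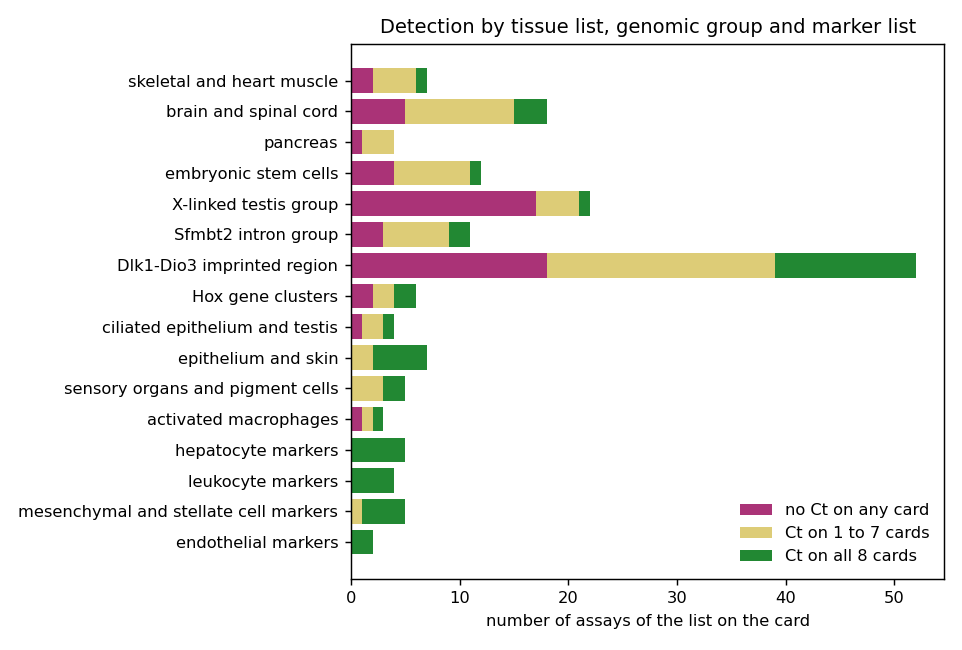
Number of assays (horizontal axis) of each list (vertical axis) that had no Ct on any card (purple), a Ct on 1 to 7 cards (yellow) or a Ct on all 8 cards (green). The X-linked testis group is mostly purple (17 of 22), and the hepatocyte, leukocyte and endothelial markers are all green.

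In the X-linked testis group, which is expressed from a rapidly evolving region of chromosome X during sperm formation, the silent mouse assays were miR-201, miR-465a-5p, miR-470, miR-742, miR-743a, miR-743b-3p, miR-743b-5p, miR-871, miR-878-5p, miR-881, miR-883a-3p, miR-883a-5p and miR-883b-3p. The rat-named assays rno-miR-742, rno-miR-871, rno-miR-878 and rno-miR-881 were silent as well. The exceptions were few. miR-547 had a Ct on every card, from 30.71 to 35.75, and miR-741 had one on 6 cards, from 32.30 to 35.66. miR-465b-5p had one on 5 cards from 32.27 to 35.94, rno-miR-743b on 4, and miR-465a-3p on 1.

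In the embryonic stem cell list, the 4 miR-302 assays, miR-302a, miR-302b, miR-302c and miR-302d, were silent, and with a Ct of 35 or more counted as undetermined 8 of the list were. The remaining 8 of its 12 assays gave at least 1 Ct, including miR-367, which lies in the same cluster and read 33.46 on card 1 of the 4-week group and gave a later Ct on card 2 of the 8-week group. miR-295, which belongs to the separate miR-290 group of early embryos, had a Ct on all 8 cards. Untreated livers gave 35.03 and 33.57 for it, and treated livers 33.98 and 34.37 (1 week), 34.86 and 35.92 (4 weeks) and 33.72 and 34.51 (8 weeks). Each treated pair overlapped the untreated pair, and both 4-week values lay above those of 1 and 8 weeks. Its family member miR-294 was read on 5 cards, from 31.95 to 35.90, miR-292-3p on 3 and miR-291a-3p on 2.

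In the muscle list, mmu-miR-1 and miR-499 were silent, whereas the rat-named rno-miR-1 was read on 5 cards, from 32.10 to 35.61. miR-499 lies within Myh7b, a myosin heavy chain gene, and helps to set the fibre type of skeletal and heart muscle. miR-1 is paired in the genome with miR-133a and is transcribed with it. miR-133a, however, had a Ct on all 8 cards, namely 33.73 and 30.30 without treatment, 30.87 and 26.78 after 1 week, 33.36 and 35.52 after 4 weeks, and 31.99 and 35.98 after 8 weeks. The pairs at 4 and 8 weeks and the 1-week pair each overlapped the untreated pair, both 1-week values lay below those of 4 and 8 weeks, and the cards within a group lay far apart. The heart miRNAs miR-208 and miR-208b, also made from myosin genes, were each read on 2 cards, in no group on both.

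In the brain and spinal cord list, 5 of 18 assays were silent, namely miR-129-5p, miR-153, miR-384-3p, miR-488 and rno-miR-219-2-3p. miR-153 lies within Ptprn2, which codes for a protein of secretory granules, and miR-488 within Astn1, a gene of neuronal migration. A further 10 were read on 1 to 7 cards. The neural miR-9 had 3 Ct values of 34.65 to 36.03, and miR-219, which is enriched in oligodendrocytes, had 2, of 34.96 and 32.85. The assays read on all 8 cards were miR-132, miR-137 and miR-138, of which miR-132 had the lowest Ct, 26.98 to 29.17.

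In the pancreas list, miR-216b was silent, and its neighbours miR-216a and miR-217 had the 1 Ct each that is given above. miR-375, which is abundant in islets and in other endocrine and gut epithelial cells, was read on 6 cards, 32.79 to 35.28, and on neither 1-week card.

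In the group within an intron of Sfmbt2, whose repeats have produced many related hairpins, miR-297b-5p, miR-297c and rno-miR-466c were silent, and miR-467a and miR-467b were read on all 8 cards. Related miRNAs of this group differ by few bases, so the signal of 1 assay can include a relative. In the Hox clusters, miR-615-3p and miR-615-5p, both from a hairpin within Hoxc5, were silent. miR-10a and miR-10b, from the HoxB and HoxD clusters, were read on all 8 cards, miR-196b on 6 and rno-miR-196c on 1. Among miRNAs of multiciliated cells, miR-449b was silent. miR-34c was read on 1 card, miR-449a on 3 and miR-34b-3p on all 8. miR-147, which macrophages induce on stimulation of Toll-like receptors, was silent. miR-155, another miRNA of activated macrophages, was read on all 8 cards from 28.97 to 30.94, and miR-511 of that list on 7. No assay of the epithelial list or of the sensory organ and pigment cell list was silent, though miR-204 of the latter had only 1 Ct, of 36.01 on untreated card 1.

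The Dlk1-Dio3 region on chromosome 12 is an imprinted region that holds one of the largest miRNA groups of mammals, expressed from the maternal chromosome and most active in the embryo, placenta and brain. Of its 52 assays on the list, 18 were silent, 21 were read on some cards and 13 on all 8, so its silent share of 34.6% stood beside 26.9% for the whole card. The silent mouse assays were miR-154, miR-377, miR-380-3p, miR-409-5p, miR-453, miR-496, miR-540-3p, miR-540-5p, miR-544, miR-654-5p, miR-665, miR-666-5p, miR-668, miR-679 and miR-770-3p. rno-miR-377, rno-miR-409-5p and rno-miR-543 were also silent. miR-493, which is not on the list, was silent as well and lies next to miR-337 in the same region.

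The silent assays of this region lay among determined ones. From Mir379 to Mir3072, where miRNA genes follow each other with gaps of at most 10 kb, 11 of 33 assays were silent, 14 were read on some cards and 8 on all. miR-668, miR-453, miR-154, miR-496 and miR-377 were 5 successive silent assays along the cluster. The next assay, miR-409-3p, had a Ct on every card, with 35.65 and 33.72 in untreated liver, 29.24 and 28.85 after 1 week, 31.85 and 32.99 after 4 weeks, and 30.17 and 31.94 after 8 weeks. In the stretch from Mir770 to Mir136, 5 of 13 assays were silent and 5 were read on all 8 cards, among them miR-127 and miR-434-3p. The silent miR-540 and miR-665 and the determined miR-127 and miR-434 have genes within the bounds of Rtl1, the retrotransposon-derived gene to which several of these miRNAs are antisense.

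**Figure D4:**
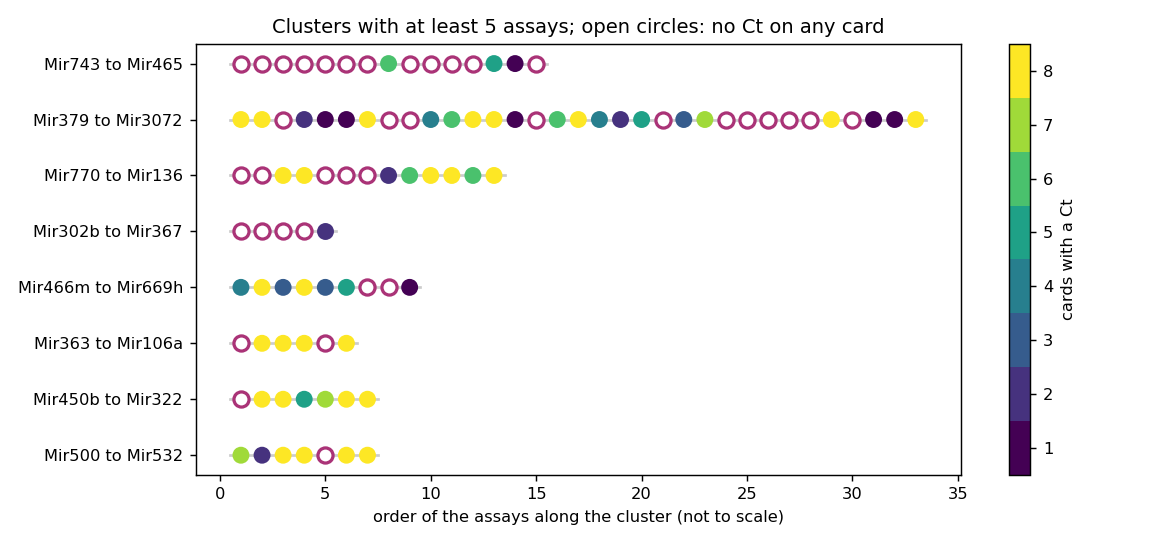
Assays in order along each genomic cluster (horizontal axis, by coordinate and not to scale) for the 8 clusters with at least 5 assays (vertical axis, first and last miRNA gene). Open circles had no Ct on any card, and filled circles are coloured by the number of cards with a Ct. The cluster from Mir743 to Mir465 is mostly open (12 of 15), whereas open and filled circles are mixed from Mir379 to Mir3072.

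Of the 329 mouse assays with a gene, 78 were silent. Across the genome, 16 clusters held at least 1 silent assay and at least 2 assays in all, and 45 silent assays lay in them. Clusters without a silent assay were not counted, so no share over all assays stands beside these counts. Of the 45 silent assays, 27 were in a cluster that also had an assay read on all 8 cards. The cluster from Mir743 to Mir465 on chromosome X had 12 of 15 assays silent and none read on every card. The miR-302 cluster, within Larp7 on chromosome 3, had 4 of 5. Elsewhere the silent assay was in the minority or had a single neighbour.

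On chromosome 8, miR-23a lies in a cluster of 3 miRNAs with miR-27a and miR-24 that is transcribed as 1 precursor. miR-23a was silent on all 8 cards. For miR-27a, untreated livers gave 29.36 and 29.47, and livers after 1 week of CCl4 29.94 and 29.91. Its values were 28.67 and 30.61 after 4 weeks and 28.47 and 29.77 after 8 weeks. All 8 values thus lay between 28.47 and 30.61. miR-24, which has a second gene in another cluster, ran from 21.83 to 24.87. miR-23b, the close relative of miR-23a in that other cluster, was read on all 8 cards from 30.11 to 32.04. The cause of this difference was not tested.

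In the cluster from Mir363 to Mir106a on chromosome X, a copy of the miR-17 cluster, miR-18b and miR-363 were silent, as was rno-miR-20b-3p, named for the passenger strand of a member. miR-106a of this cluster ran from 24.92 to 27.34 and miR-20b from 30.62 to 33.97. miR-19b and miR-92a were also read on all 8 cards, but they have a second gene outside the cluster. Beside miR-18b, its relative miR-18a ran from 31.84 to 33.99 over the 8 cards.

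Further clusters on chromosome X had 1 silent assay each. miR-450b-5p was silent in the cluster from Mir450b to Mir322, a group linked to muscle differentiation and growth arrest, where miR-322, miR-503, miR-450a-5p and miR-542-5p were read on all 8 cards. miR-188-3p was silent in the cluster within Clcn5, where miR-532-5p ran from 27.74 to 29.97. miR-452 and miR-224 both lie within Gabre, a GABA receptor subunit gene; miR-452 was silent and miR-224 had a Ct on every card, from 31.56 to 34.95. miR-201 was silent beside miR-547.

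Of the 58 mouse assays with a gene on chromosome X, 25 were silent (43.1%). Without the testis list, 12 of 41 were silent (29.3%), and on the other chromosomes 53 of 275 (19.3%). Besides those named above, the X-linked silent assays were miR-105 within Gabra3 (another GABA receptor subunit), miR-448 within Htr2c (a serotonin receptor of the brain), miR-504 within Fgf13, miR-505, miR-325 and miR-509-5p.

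Both arms of a hairpin could be compared where the card held an assay for each. Hairpins with a Ct on both arms were not counted, so the counts of hairpins have no share over the whole card beside them. Among 19 hairpins with a silent arm, both arms were silent in 7, namely miR-540, miR-615, miR-675, miR-743b, miR-876, miR-883a and, on rat-named assays, miR-344 (rno-miR-344-3p and rno-miR-344-5p). The arms miR-675-3p and miR-675-5p are cut from H19, an imprinted non-coding RNA that is abundant in fetal liver and falls after birth. The arms miR-876-3p and miR-876-5p come from a hairpin within Lingo2.

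In the other 12 hairpins 1 arm was silent, and the other was read on all 8 cards in 5 and on some cards in 7. miR-139-3p was silent while miR-139-5p, from the same hairpin within Pde2a, ran from 24.98 to 27.61. miR-125b-3p was silent while miR-125b-5p ran from 26.83 to 28.98. These were the 2 partners with the lowest Ct. miR-409-5p, miR-296-3p and miR-188-3p were the other silent arms whose partner was read on every card.

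**Figure D5:**
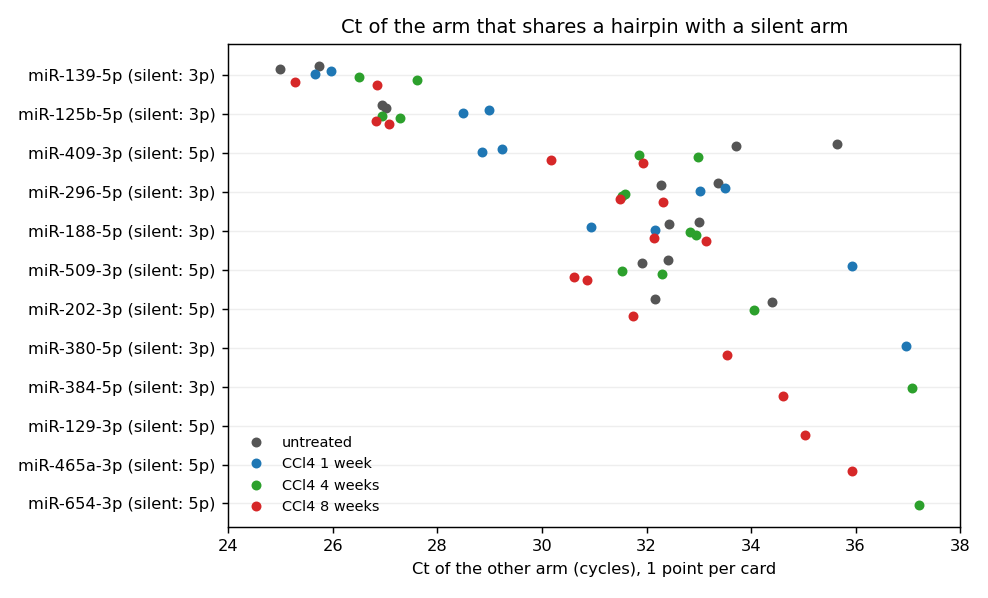
Ct in cycles (horizontal axis) of the determined arm of each of 12 hairpins (vertical axis) whose other arm was silent on all 8 cards, with 1 point per card coloured by group. miR-139-5p and miR-125b-5p have the lowest Ct, and from miR-202-3p down at most 4 cards gave a value.

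Among the partners read on some cards, miR-509-3p (silent arm miR-509-5p) was read on 7 cards from 30.61 to 35.94, and miR-202-3p (silent arm miR-202-5p) on 4 from 31.74 to 34.40. miR-380-5p and miR-384-5p were read on 2 cards each. miR-129-3p, miR-465a-3p and miR-654-3p were read on 1 card each, at 35.03, 35.93 and 37.21.

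The card held 16 miRNA names that had an assay for mouse and another for rat. Both were silent for 6 names, miR-346 (mmu-miR-346 and rno-miR-346), miR-377, miR-409-5p, miR-742, miR-871 and miR-881. The mouse assay alone was silent for 3. mmu-miR-207 had no Ct, and rno-miR-207 had one on 6 cards, with 30.09 and 31.10 in untreated liver, 31.99 and 30.81 at 1 week, 29.78 on card 1 after 4 weeks and 29.45 on card 1 after 8 weeks. mmu-miR-1 had none and rno-miR-1 had 5, from 32.10 to 35.61. mmu-miR-505 had none and rno-miR-505 had 1, at 35.96. The reverse held for miR-543, where the mouse assay was read on 4 cards from 32.54 to 35.96 and the rat assay on none. Neither was silent for the remaining 6 names.

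By seed, 56 of the 65 silent miRNAs with a sequence were alone with their seed among the mouse assays that had one, and 6 seed groups of at least 2 assays held a silent member. The same counts were not made for the assays with a Ct, so no share over all assays stands beside them. The 6 silent miRNAs that shared a seed with another silent one were the pairs miR-743a and miR-743b-3p, miR-883a-3p and miR-883b-3p, and miR-302b and miR-302d. The 5 that shared a seed with a determined assay that had a sequence were miR-18b, miR-302b, miR-302d, miR-363 and miR-465a-5p. No sequence was matched for miR-23b, so miR-23a could not be set against it. Beside miR-363, the family members miR-92a and miR-25 had a mean Ct of 27.62 and 31.54 over 8 cards, and miR-32 one of 32.64 over 7.

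Length and base content were computed from the sequences, which the rule did not use. The median length was 22 bases in the 65 silent miRNAs, in the 73 read on some cards and in the 136 read on all. The median GC content was 45.5% in each class, with the middle range wider among the silent (36.4% to 56.5%) than among those read on all cards (40.9% to 52.2%). A first base U, the base that Argonaute proteins favour, was present in 33 of 65 silent miRNAs (50.8%), 31 of 73 read on some cards (42.5%) and 80 of 136 read on all (58.8%). A first base G was present in 8 of 65 (12.3%), 9 of 73 (12.3%) and 5 of 136 (3.68%).

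The annotation was also searched for genes that span the miRNA gene. Genes on the opposite strand counted as well, as Rtl1 did for the miRNAs antisense to it. A span, or a place within a gene, thus gives position only. A protein-coding gene spanned the miRNA gene for 36 of 78 silent assays (46.2%), 50 of 92 read on some cards (54.3%) and 81 of 159 read on all cards (50.9%). Among the silent miRNAs outside the lists, miR-346 lies in Grid1 (a glutamate receptor family gene), miR-686 in Psmb5 (a proteasome subunit), miR-677 in Atp5b (a subunit of ATP synthase) and miR-207 in Dnaja1 (a chaperone).

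The silent mouse assays not yet named were miR-220, miR-464, miR-468, miR-469, miR-551b (within Egfem1), miR-598 (within Xkr6), miR-670 (in the host transcript Mir670hg, near miR-129-2), miR-683, miR-684, miR-874 (within Klhl3) and miR-875-3p (within Vps13b). The annotation used here gave no gene for miR-220, miR-464 and miR-469. The silent rat-named assays not yet named were rno-miR-327, rno-miR-333, rno-miR-336, rno-miR-349, rno-miR-421, rno-miR-598-5p and rno-miR-760-5p. With these, all 101 silent assays have been named.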

How the data were processed

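Total RNA from whole mouse liver was reverse transcribed (Megaplex Rodent Pool A, no pre-amplification) and run on TaqMan Array Rodent MicroRNA A Cards. The authors deposited raw Ct values (another unit than counts or intensities), without normalization or pooling and with undetermined wells empty. The software and threshold behind a Ct are not given in the sources used here. A deposited table of fold changes made by the authors was not used. Of the 381 rows, 375 were mouse or rat miRNA assays. Groups came from the sample labels. No Ct was normalized or tested, since the rule is whether a Ct exists. The members and lists were chosen with earlier results of these data known. Every silent assay was named. Ct values, their range or the number of cards were given for some of the other assays. These were assays with 1 Ct, mates in a hairpin, cluster or family, and markers. Names were matched to RefSeq tables (GRCm38.p6), which gave a gene for 329 of 335 mouse assays. Neighbouring miRNA genes with gaps up to 10 kb on 1 strand (any strand where not given) formed a cluster. Python 3.11.15, pandas 2.3.3 and matplotlib 3.10.9 were used. Precision is limited by 2 cards per group, and no interval was computed, as a Ct gives no count.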

Additional observations from a re-analysis of the deposited data

How the results depend on the processing

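The silent assays numbered 129 when a Ct of 35 or more was counted as undetermined, 135 when 1 Ct was allowed and 81 among mouse-named assays, and 103 to 108 with any 1 card left out. Clusters with a silent assay numbered 18 with gaps up to 3 kb and 24 with gaps up to 50 kb. With the seed taken as bases 2 to 7, 8 silent miRNAs shared it with an assay with a Ct, against 5. Of 176 counts of silent assays per list under these alternatives, 161 stayed within 1.5 times and 15 did not. With a Ct of 35 or more counted as undetermined, the embryonic stem cell list had 8 silent assays in place of 4, the pancreas list 3 in place of 1, the ciliated list 2 in place of 1 and the sensory list 1 in place of 0. With 1 Ct allowed, the brain list had 8 in place of 5, the stem cell list 7, the Sfmbt2 group 5 in place of 3, the pancreas list 3, the ciliated list 2, and the sensory list and the mesenchymal markers 1 each. Without card 2 of the 1-week group the pancreas list had 3 silent assays in place of 1, without card 2 of the 8-week group the list of ciliated epithelium and testis had 2 in place of 1, without untreated card 1 the sensory list had 1 in place of 0, and without untreated card 2 the mesenchymal markers had 1 in place of 0. The median GC content of the silent miRNAs was 45.5% to 47.6% and the median length 22 bases. Only mouse-named assays had a sequence, so limiting these features to them changed no value. No paired analysis was possible because the results come from no test.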
